A study of Mus musculus with 14 samples.

Results

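The genes of the AP-1 transcription factor and 2 immediate early factors that act beside it were followed through telomere dysfunction-induced senescence in cultured fibroblasts and in the liver. They were 9 genes chosen by name, *Fos*, *Fosb*, *Fosl1*, *Fosl2*, *Jun*, *Junb*, *Jund*, *Atf3* and *Egr1*, of 54532 genes in the count tables, and all 9 were found. RNA was sequenced from 14 libraries, 3 of control and 3 of senescent immortalized murine embryonic fibroblasts (iMEFs) and 4 of control and 4 of senescent livers. All 6 iMEF libraries had the genotype Trf2F/F;Rosa-CreER and came from cells immortalized with the SV40 large T antigen, so both *Trf2* alleles (gene symbol *Terf2*) could be removed by a Cre recombinase that 4-hydroxytamoxifen (4HT) switches on. Control iMEFs were given vehicle, and senescent iMEFs were given 4HT and collected 7 days later. Cells that received 4HT but kept *Trf2* were not among the libraries, so the drug, active Cre and the deletion cannot be told apart. Mice of both liver groups received AAV8-Tbg-Cre, a virus that expresses Cre from the thyroxine-binding globulin promoter, which is active in hepatocytes. Control livers were Rosa-mTmG and senescent livers were Trf2F/F;Rosa-mTmG, where mTmG is a reporter that changes color after Cre acts. The senescent livers were labelled as taken 6 weeks after the virus, while the labels of the control livers name no time. The paper's methods give 6 to 7 weeks for mice of both genotypes. Whole liver was sequenced, so cells other than hepatocytes kept *Trf2*, and neither the age of the mice nor the number of embryos behind the iMEFs was stated.

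AP-1 is a pair of leucine zipper proteins that binds DNA at the sequence TGACTCA. JUN proteins can pair with each other or with a FOS protein, whereas FOS proteins need a JUN partner, and the make-up of the pair sets how strongly AP-1 activates its targets. *Fos*, *Fosb*, *Jun*, *Junb*, *Atf3* and *Egr1* are immediate early genes, which growth factors, stress and injury switch on within minutes through MAP kinases, while *Fosl1* (FRA1) and *Fosl2* (FRA2) follow later and *Jund* is present in most resting cells. In the liver these genes are known for their quick and short rise after partial hepatectomy, handling or injury.

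The deleted gene and a senescence marker were read first. *Terf2* stood at 38.3 ± 0.775 CPM (reads of a gene scaled to a common library size with TMM factors) in control iMEFs (SD, n = 3) and 0.25 ± 0.0482 CPM in senescent iMEFs (SD, n = 3). In whole liver it was 12.6 ± 1.35 CPM in controls and 3.82 ± 1.12 CPM in senescent livers (SD, n = 4 each). The liver log2 fold change was -1.72 (SE 0.20, adjusted p = 0.00216 by the edgeR quasi-likelihood test). *Cdkn1a*, which encodes the cell cycle inhibitor p21, rose by 2.15 on the log2 scale in iMEFs (SE 0.09, adjusted p = 8.88e-09, edgeR) and by 2.44 in livers (SE 0.42, adjusted p = 0.0293, edgeR). The liver call of *Cdkn1a* was past the threshold in 8 of 13 alternative analyses. Libraries held 15364450 to 20177401 reads in genes. Of 10 lists of cell type markers, the 7 hepatocyte genes found summed to 79071.8 to 108921.1 CPM in livers, and 6 of them had 0 reads in iMEFs. The 8 fibroblast genes summed to 18638.6 to 20343.7 CPM in control and 8825.0 to 10926.2 CPM in senescent iMEFs. There 6 of the 8 fell (adjusted p under 0.05, edgeR), where 21.2% of all genes tested did. In livers 0 of 54 marker genes tested passed by edgeR and 1, of the stellate cell list, passed by DESeq2. An unadjusted p under 0.05 (edgeR) was found for 10 of the 54, and for 1076 of all 14270 genes tested.

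The bases just before the start of 4 members are printed because 2 of them, *Fos* and *Junb*, fell and 2, *Jun* and *Atf3*, rose in the iMEFs. They are the 150 bases before the RefSeq start in GRCm38.p6, read 5′ to 3′ on the gene's strand, and capitals mark the motif matches described after them.
Fos, chr12:85473740-85473889, plus strand: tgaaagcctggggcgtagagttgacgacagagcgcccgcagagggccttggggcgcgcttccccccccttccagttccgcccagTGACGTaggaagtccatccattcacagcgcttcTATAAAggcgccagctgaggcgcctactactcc
Junb, chr8:84978749-84978898, minus strand: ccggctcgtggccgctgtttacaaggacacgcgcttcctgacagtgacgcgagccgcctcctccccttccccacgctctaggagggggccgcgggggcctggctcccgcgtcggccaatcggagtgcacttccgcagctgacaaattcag
Jun, chr4:95052223-95052372, minus strand: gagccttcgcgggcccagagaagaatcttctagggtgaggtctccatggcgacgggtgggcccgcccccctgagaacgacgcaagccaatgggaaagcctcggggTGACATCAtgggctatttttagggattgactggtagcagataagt
Atf3, chr1:191183334-191183483, minus strand: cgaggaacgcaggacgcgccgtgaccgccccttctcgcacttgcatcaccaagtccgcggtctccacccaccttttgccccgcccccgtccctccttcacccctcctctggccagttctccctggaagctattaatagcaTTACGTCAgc
Windows of 250 bases before the start, available for 7 of the 9 members and not for *Fosl1* or *Egr1*, were searched on both strands for the AP-1 letters TGACTCA, for the cAMP element TGACGTCA and its core TGACGT, for the variants TGACATCA and TTACGTCA, for TATAAA, and for the CArG box, the site of serum response factor. These motifs were chosen after the windows had been seen, and a match describes letters, not a bound site. TGACGT stood 66 to 61 bases before the *Fos* start and TATAAA 33 to 28 bases before it, and of 32817 mouse windows 6.46% held the former and 12.4% the latter. TGACATCA stood 45 to 38 bases before the *Jun* start (2.93% of windows), and TTACGTCA stood 10 to 3 bases before the *Atf3* start (0.445% of windows), where the TGACGT core overlaps it on the minus strand. The last 7 bases of the *Atf3* window lie in an annotated UTR. None of these motifs was found in the windows of *Junb*, *Jund*, *Fosb* or *Fosl2*. Neither TGACTCA (4.46% of windows), TGACGTCA (1.55%) nor the CArG box (1.47%) was found in any of the 7. The RefSeq start used for *Jund* (chr8:70697739) lies before the GENCODE start of the gene (70698949). The *Atf3* start lies inside its GENCODE gene, and all 250 bases of the *Fosl2* window are annotated UTR. For these members the windows are not the bases just before the GENCODE gene. Bases farther than 250 from a start were not searched, so a missing match does not show that a gene lacks the site.

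In senescent iMEFs, *Fosl1*, *Jun* and *Atf3* rose and *Fos*, *Junb*, *Jund* and *Egr1* fell, while *Fosb* and *Fosl2* did not pass the test. All 9 members were tested, and 7 passed an adjusted p of 0.05 (edgeR, adjusted over all 13561 genes tested), where 39.8% of all genes tested did. The 3 rises stand against 18.6% of genes that rose, and the 4 falls against 21.2% that fell. The changes were largest for *Atf3* (2.94-fold higher) and *Fosl1* (2.87-fold higher) and for *Fos* (to 0.348 of control). Senescent and control libraries did not overlap for 8 of 9 members, all but *Fosb*, and for 50.6% of all genes tested. All 7 calls held in each of 11 alternative analyses, which include leaving out each library in turn. As background for the sizes, the median log2 fold change over all genes tested was 0.00 and the median size without sign was 0.28.

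**Figure D1:**
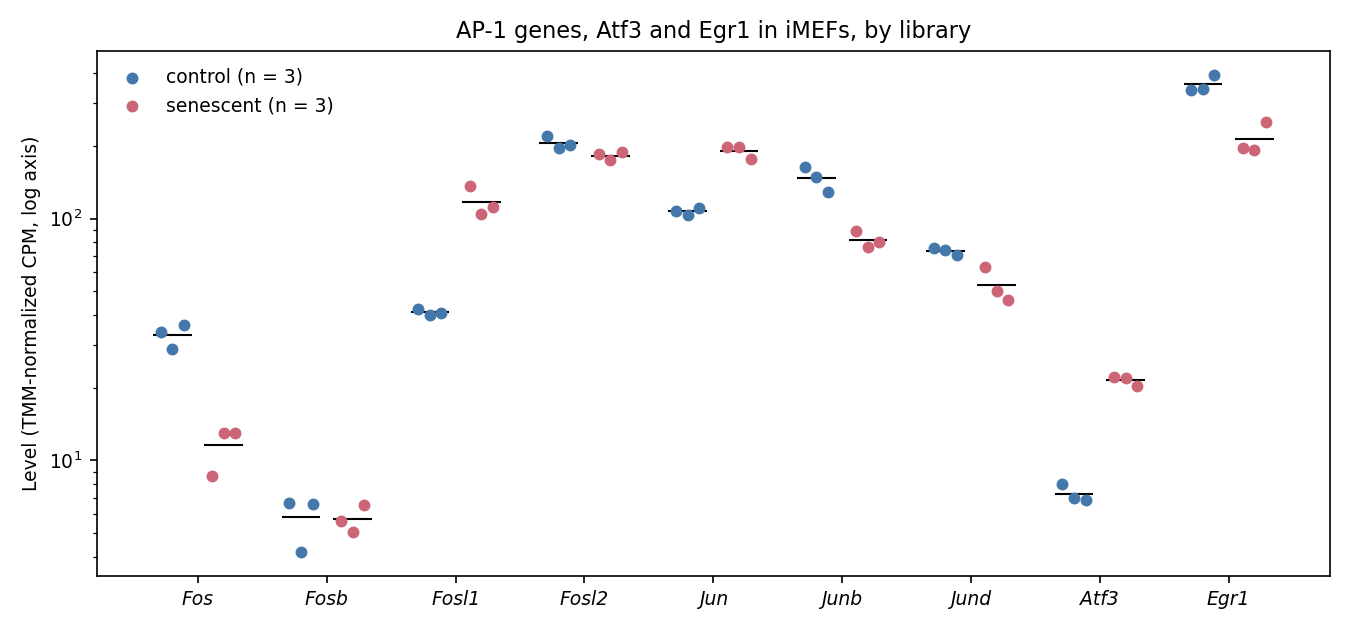
Level of each of the 9 members in each iMEF library, in TMM-normalized CPM on a log axis, with control and senescent libraries side by side and a line at each group mean. *Fos*, *Junb*, *Jund* and *Egr1* sit lower in all 3 senescent libraries, *Fosl1*, *Jun* and *Atf3* sit higher, and the 2 groups overlap for *Fosb*.

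Within the FOS family, *Fos* and *Fosl1* moved in opposite directions. *Fos*, the founding member of the family, stood at 34, 29.0 and 36.4 CPM in the control iMEFs and at 8.64, 13 and 13 CPM in the senescent iMEFs. All 3 senescent libraries were below all 3 controls, with a log2 fold change of -1.52 (SE 0.15, 95% confidence interval -1.86 to -1.19, adjusted p = 9.14e-06, edgeR). *Fosl1*, whose protein FRA1 lacks the strong activation domain of FOS, stood at 42.4, 39.9 and 40.6 CPM in controls and at 135.8, 104.8 and 112.1 CPM in senescent libraries. It rose by 1.52 on the log2 scale (SE 0.10, interval 1.30 to 1.75, adjusted p = 3.24e-07, edgeR). *Fosl2*, which encodes FRA2, had 218.9, 196.6 and 201.9 CPM in controls and 184.9, 174.2 and 187.7 CPM in senescent libraries. These groups did not overlap, yet the log2 fold change of -0.17 (SE 0.08, interval -0.34 to -0.01) had an adjusted p of 0.091 (edgeR). *Fosb*, best known for its part in neurons, was the least abundant member per length, with 6.68, 4.19 and 6.61 CPM in controls and 5.64, 5.06 and 6.54 CPM in senescent libraries. Its log2 fold change was -0.02 (SE 0.20, interval -0.45 to 0.42, adjusted p = 0.955, edgeR), and the interval leaves room for a change of either sign. The short isoform ΔFosB cannot be told apart from full-length *Fosb* in counts per gene.

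Exons of *Fosl1* share 1163 of their 2033 annotated bases with *Ccdc85b*, a gene on the opposite strand, and whether reads were counted by strand is not stated. *Ccdc85b* had fewer reads in the 6 iMEF libraries (3120 against 8537 for *Fosl1*). It went the other way in senescent iMEFs, with a log2 fold change of -0.37 (SE 0.13, adjusted p = 0.0412, edgeR). That call was past the threshold in 7 of 11 alternatives, and was lost without control replicate 1 (adjusted p = 0.20, edgeR), control replicate 2 (0.0858) or senescent replicate 2 (0.0822) or 3 (0.0869).

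Of the JUN family, *Jun* rose while *Junb* and *Jund* fell. *Jun*, a strong activator, stood at 107.6, 103.4 and 110.1 CPM in controls and at 197.6, 196.9 and 176.8 CPM in senescent iMEFs. The log2 fold change was 0.83 (SE 0.08, interval 0.66 to 1, adjusted p = 4.68e-06, edgeR), with all 3 senescent libraries above all 3 controls. *Junb*, a weaker activator that can restrain *Jun*, stood at 163.8, 148.8 and 129.1 CPM in controls and at 88.8, 76.0 and 80.1 CPM in senescent libraries. Its log2 fold change was -0.85 (SE 0.10, interval -1.06 to -0.64, adjusted p = 2.94e-05, edgeR). *Jund*, which is linked to slow growth and protection from oxidative stress, stood at 75.4, 73.8 and 70.9 CPM in controls and at 63.0, 50.4 and 46.2 CPM in senescent libraries. It had the smallest change among the 7 that passed, -0.46 on the log2 scale (SE 0.11, interval -0.70 to -0.23, adjusted p = 0.00519, edgeR), and senescent replicate 1 lay nearest to the controls. Genes on the opposite strand share exon bases here too. The antisense gene *Junos* shares 232 bases with *Jun* and had 245 reads in the iMEFs against 16092 for *Jun*. *Prdx2* shares 173 bases with *Junb* and had more reads than it, 26778 against 12674, with a log2 fold change of -0.36 (SE 0.09, adjusted p = 0.00586, edgeR). *Gm11175* shares 877 bases with *Jund* and had 0 reads, and whether reads in the shared bases were counted is not known.

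*Atf3* encodes a stress-induced leucine zipper protein that pairs with JUN proteins and often represses. It stood at 8.01, 7.01 and 6.87 CPM in controls and at 22.1, 21.9 and 20.4 CPM in senescent iMEFs, a log2 fold change of 1.56 (SE 0.12, interval 1.30 to 1.81, adjusted p = 9.32e-07, edgeR). The 3 senescent libraries lay close together and far above the controls. *Egr1*, a zinc finger factor that serum response factor switches on together with *Fos*, stood at 339.2, 343.0 and 393.8 CPM in controls and at 196.6, 191.8 and 250.5 CPM in senescent iMEFs. It fell by 0.75 on the log2 scale (SE 0.11, interval -0.99 to -0.52, adjusted p = 0.000183, edgeR), and its highest senescent library was still below its lowest control.

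Because levels of different genes compare only per length, CPM were also divided by the bases of all annotated exons of the gene, UTRs included, and given as CPM per kb. In control iMEFs the order from high to low was *Egr1* (80.0 CPM per kb), *Junb* (64.0), *Jund* (44.0), *Jun* (33.6), *Fosl2* (21.3), *Fosl1* (20.1), *Fos* (14.1), *Atf3* (3.39) and *Fosb* (0.933). Neighbours in this order had ranges that did not overlap, except *Fosl2* and *Fosl1*. In senescent iMEFs the order was *Jun* (59.7 CPM per kb), *Fosl1* (57.8), *Egr1* (47.5), *Junb* (35.5), *Jund* (31.9), *Fosl2* (18.8), *Atf3* (9.97), *Fos* (4.91) and *Fosb* (0.92). Here the ranges of *Jun* and *Fosl1*, of *Fosl1* and *Egr1*, and of *Junb* and *Jund* overlapped. *Jun* was above *Fosl1*, and *Fosl1* above *Egr1*, in 2 of 3 libraries, while *Junb* was above *Jund* in 3 of 3. These levels rest on the exon lengths of every isoform, and the isoform in use was not measured. Of those lengths, 1163 of 2033 bases of *Fosl1* and 877 of 1668 bases of *Jund* are shared with genes on the opposite strand. Whether reads in shared bases were counted is not known. The levels of *Fosl1* and *Jund* per length could thus be off in both tissues, as could their places in the order and their family shares.

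The make-up of both families shifted in the same per-length values, which are a second description of the changes given above and carry no further test. *Fosl1* made up 35.7% ± 1.2 of the FOS family sum in control iMEFs and 69.9% ± 3.38 in senescent iMEFs (SD, n = 3 each), *Fos* went from 24.9% ± 1.88 to 6.05% ± 1.74, and *Fosl2* from 37.7% ± 1.14 to 22.9% ± 1.56. The family sum was 56.4 ± 3.12 CPM per kb in controls and 82.5 ± 7.38 CPM per kb in senescent iMEFs. The ratio of *Fosl1* to *Fos* ranged from 1.29 to 1.59 in controls and from 9.3 to 18.2 in senescent libraries. In the JUN family, *Jun* went from 23.8% ± 1.88 to 47.1% ± 2.29 of the sum and *Junb* from 45.1% ± 2.69 to 27.9% ± 1.54, while *Jund* went from 31.1% ± 0.91 to 25.0% ± 2.02. The JUN family sum ranged from 133.1 to 150.1 CPM per kb in controls and from 118.0 to 138.3 in senescent iMEFs, and these ranges overlapped. The ratio of *Jun* to *Junb* was 0.474 to 0.615 in controls and 1.59 to 1.87 in senescent libraries.

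**Figure D2:**
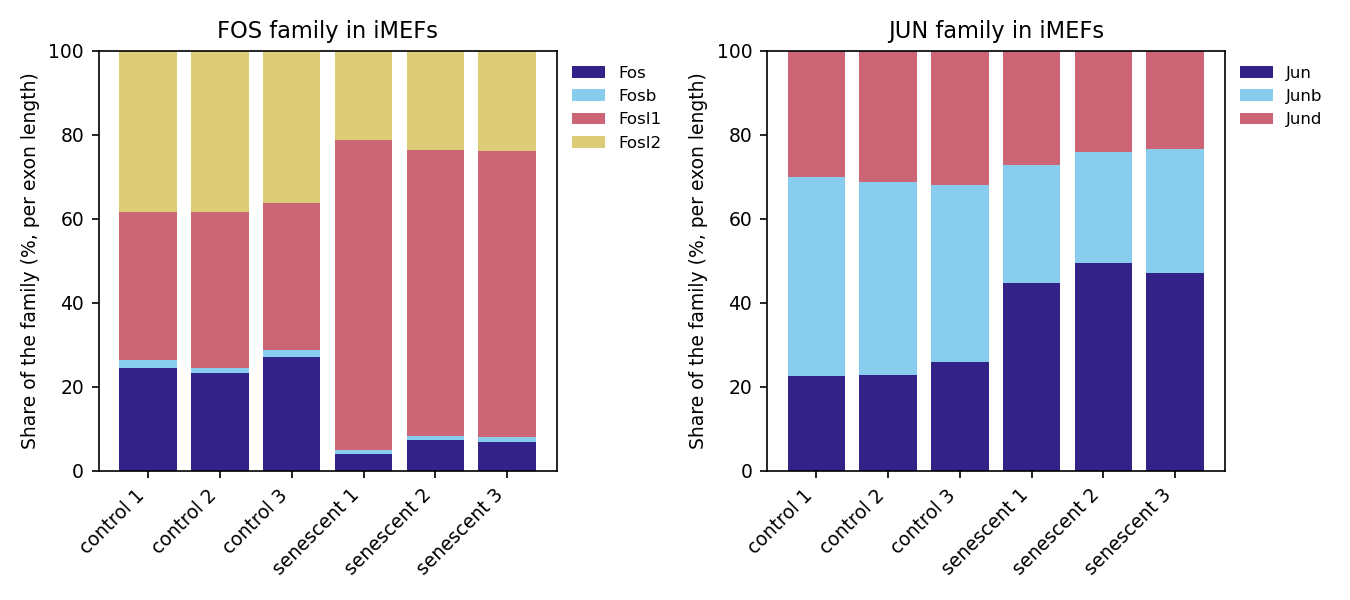
Share of the FOS family sum (left) and of the JUN family sum (right) taken by each member, in percent of CPM per kb, as 1 stacked bar for each of the 6 iMEF libraries. *Fosl1* takes 67.9% to 73.8% of the FOS family in senescent libraries against 34.8% to 37.1% in controls, and *Jun* takes 44.8% to 49.4% of the JUN family against 22.5% to 25.9%.

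In livers, none of the members passed the test. Of the 9 members, 7 passed the filter on low counts and were tested, and 0 passed an adjusted p of 0.05 (edgeR), as did 0.343% of the 14270 genes tested. At an unadjusted p under 0.05 there were 0 members by this fit and by limma-voom, 1 by DESeq2, 1 with the replicate block (*Junb*), 2 without the filter (*Jun* and *Fosb*), and 0 or 1 when single libraries were left out. Over all genes tested, the same rule took 1076 of 14270 by this fit, 1114 by limma-voom, 1110 by DESeq2 and 1139 with the block. It took 1789 genes without the filter and 863 to 1392 when single libraries were left out. No member passed the adjusted threshold in any of 13 alternatives. The 2 groups overlapped for all 7 members, whereas they did not overlap for 4.51% of genes. In bulk RNA, fewer cells of a type and less RNA per cell cannot be told apart.

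*Fos* stood at 0.669, 2.11, 2.98 and 2.28 CPM in the control livers and at 0.578, 1.45, 4.65 and 3.03 CPM in the senescent livers. Both groups held a library below 1 CPM, and the log2 fold change was 0.27 (SE 0.56, interval -0.96 to 1.5, adjusted p = 0.947, edgeR). *Fosl2* ranged from 8.94 to 13.5 CPM in controls and from 7.39 to 11.6 CPM in senescent livers, with a log2 fold change of -0.18 (SE 0.17, interval -0.56 to 0.20). The other FOS genes were near the limit of detection. *Fosb* had 0, 5, 0 and 4 reads in the control livers and 3, 7, 14 and 10 reads in the senescent livers, and the ranges overlapped. The ratio of the summed reads per depth was 4.1, with an exact 95% interval of 1.93 to 9.72 that covers counting error only and not the spread between livers. *Fosl1* had 0, 4, 4 and 6 reads in controls and 9, 1, 8 and 0 in senescent livers, a ratio of 1.4 (interval 0.656 to 3.03). The neighbour *Ccdc85b*, which shares exon bases with it, had 1441 reads in the livers against 32 for *Fosl1*.

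*Jun* was the member with the lowest p in livers. It stood at 12.3, 24.2, 16.6 and 19.6 CPM in controls and at 35.8, 25.6, 22.1 and 18.1 CPM in senescent livers. Both highest libraries were senescent, and the log2 fold change was 0.48 (SE 0.22, interval -0.01 to 0.97, unadjusted p = 0.0533, adjusted p = 0.665, edgeR). *Junb* stood at 14.3, 14, 42 and 24.8 CPM in controls and at 17.8, 20.3, 40.5 and 39.7 CPM in senescent livers, with a log2 fold change of 0.32 (SE 0.36, interval -0.47 to 1.10). *Jund* ranged from 36.6 to 42.2 CPM in controls and from 38.7 to 44.2 CPM in senescent livers, and its log2 fold change of 0.03 had the narrowest interval of the 7 (-0.17 to 0.22). *Atf3* stood at 1.28, 2.93, 2.01 and 1.17 CPM in controls and at 1.68, 2.91, 1.59 and 4.36 CPM in senescent livers. Its highest library was senescent replicate 4, and the log2 fold change was 0.51 (SE 0.41, interval -0.37 to 1.4). *Egr1* stood at 8.47, 13.3, 67.8 and 32.4 CPM in controls and at 9.42, 15.5, 32.9 and 94.2 CPM in senescent livers. The log2 fold change of 0.32 had an interval of -1.20 to 1.85, from 0.434-fold to 3.6-fold, so a change of *Egr1* of the size seen in the iMEFs was not detectable at this spread. Without senescent replicate 4 the *Egr1* value was -0.66.

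**Figure D3:**
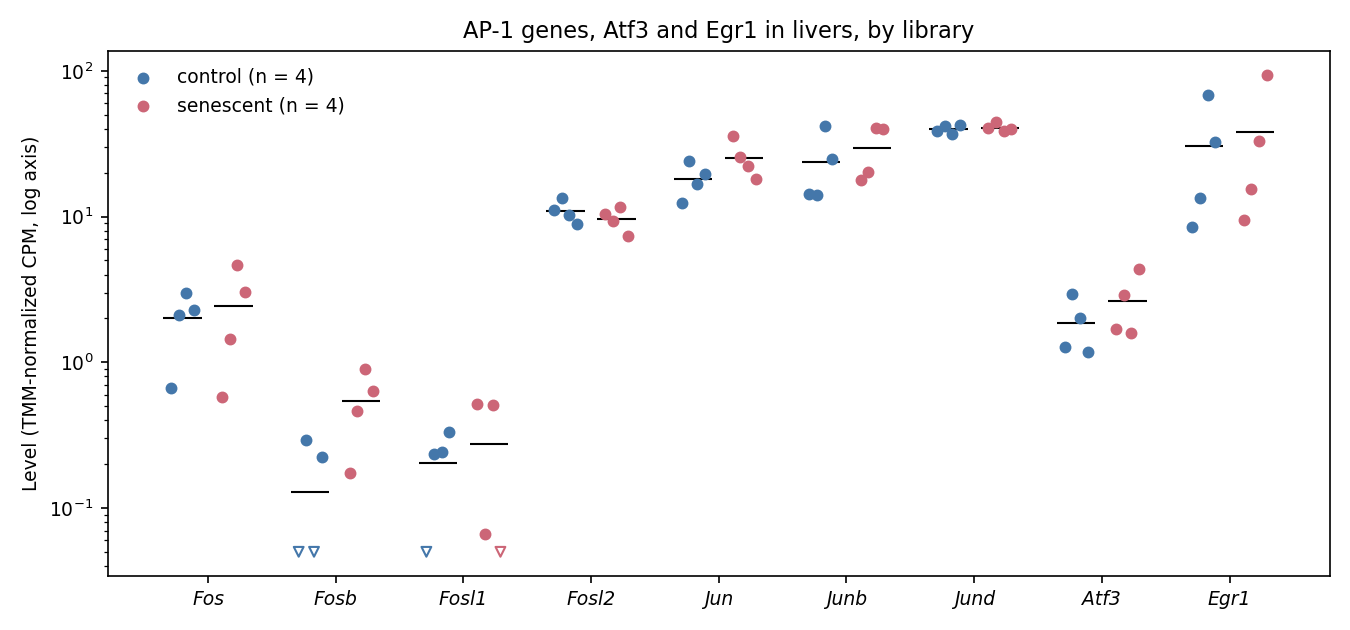
Level of each of the 9 members in each liver library, in TMM-normalized CPM on a log axis, with control and senescent libraries side by side and a line at each group mean. Open triangles at the foot of the axis mark libraries with 0 reads. The groups overlap for every member, *Egr1* and *Fos* are spread widely within both groups, and *Jund* is tight.

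Per length, the order in control livers was *Jund* (23.9 CPM per kb), *Junb* (10.3), *Egr1* (6.79), *Jun* (5.71), *Fosl2* (1.13), *Atf3* (0.857), *Fos* (0.854), *Fosl1* (0.0997) and *Fosb* (0.0206). *Jund* did not overlap with *Junb*, nor *Jun* with *Fosl2*, nor *Fos* with *Fosl1*, while the other neighbours overlapped. Senescent livers had *Jund* (24.4 CPM per kb), *Junb* (12.9), *Egr1* (8.48) and *Jun* (7.96) in the same order, followed by *Atf3* (1.22), *Fos* (1.03) and *Fosl2* (0.998), which overlapped with each other. *Jund* made up 60.7% ± 9.19 of the JUN family sum in control livers and 54.2% ± 5.61 in senescent livers (SD, n = 4 each). *Fosl2* and *Fos* made up most of the FOS family sum, with 56.1% ± 17.2 and 38.7% ± 14.1 in controls and 48.2% ± 16.4 and 41.8% ± 20.3 in senescent livers.

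The spread among livers of 1 group was large for the immediate early members and small for *Jund*. The highest library was 8.0 times the lowest for *Egr1* among control livers and 10.0 times among senescent livers, and 4.45 and 8.04 times for *Fos*. For *Jund* these ratios were 1.15 and 1.14. The SD within groups on the log2 scale was 1.39 for *Egr1*, which placed it 103rd from the top of 14270 genes, 1.13 for *Fos* (259th), 0.69 for *Junb*, 0.65 for *Atf3*, 0.41 for *Jun*, 0.26 for *Fosl2* and 0.09 for *Jund*. The median over all genes was 0.23. Among genes within 0.5 log2 units of the member's own level the median was 0.17 for *Egr1* and *Junb*, 0.18 for *Jun*, 0.23 for *Fosl2* and 0.15 for *Jund*, but 0.47 for *Fos* and 0.45 for *Atf3*. *Egr1* was more spread than nearly all of its 2444 like-level genes, *Junb* than 99.3% of its own, *Fos* than 97.8%, *Jun* than 95.9%, *Atf3* than 83.5%, *Fosl2* than 65.7% and *Jund* than 12.8%. In the iMEFs the same SD was 0.07 to 0.30 for the 9 members, with a median of 0.15 over all genes.

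*Egr1*, *Fos* and *Junb* were high in the same livers, a pattern noticed in these values. The 4 highest libraries of each of the 3 genes were control replicates 3 and 4 and senescent replicates 3 and 4, and control replicate 1 and senescent replicate 1 were the lowest for *Egr1* and *Fos*. The high livers of these 3 genes thus carried the same replicate numbers in both groups. Whether those numbers mark pairs is not stated. *Jun* had another order, with senescent replicate 1 highest and control replicate 1 lowest. Of 39 other immediate early genes tested, 18, 11, 23 and 14 were above their mean over the 8 livers in control replicates 1 to 4. The same count was 14, 22, 32 and 25 in senescent replicates 1 to 4, so the highest counts were those of senescent replicates 3 and 4 and control replicate 3. Their median deviations ran from -0.21 in control replicates 2 and 4 to 0.34 in senescent replicate 3 on the log2 scale, while the median over all genes was 0.00 to 0.01 in every library. The macrophage markers summed to 254.2 to 557.7 CPM in control livers and 476.8 to 566.7 CPM in senescent livers, and 0 of 8 passed the test. The part of the other immediate early genes and of macrophages in this spread was not tested.

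**Figure D4:**
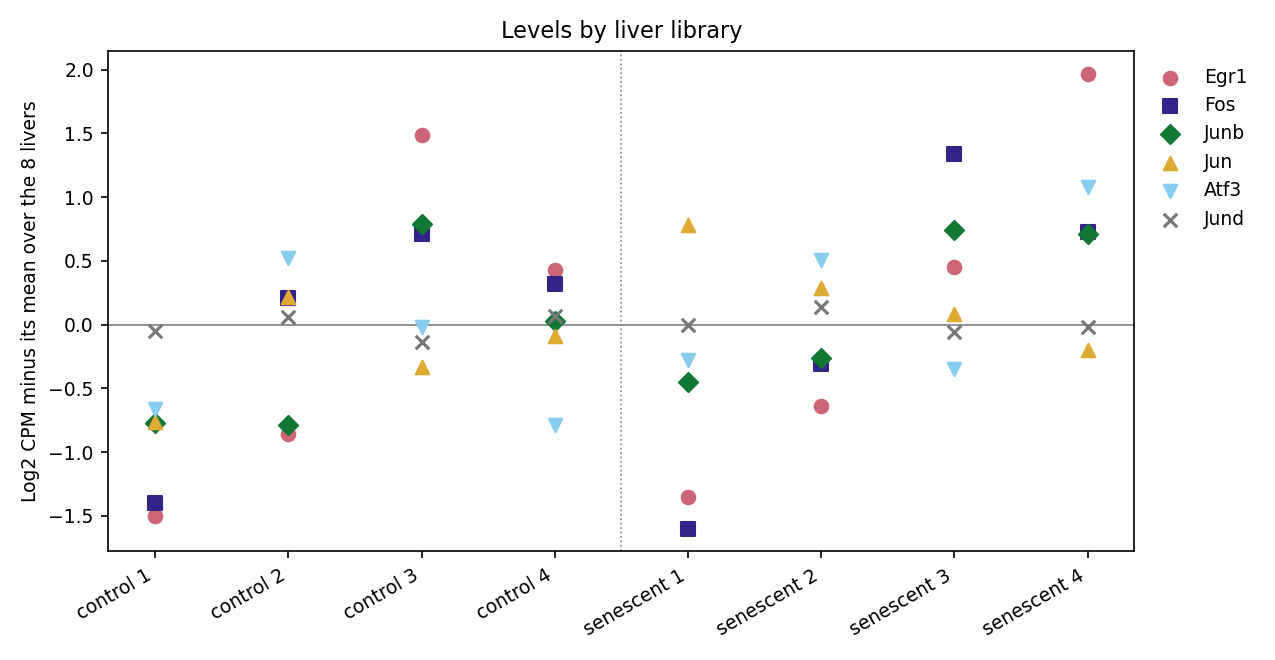
Deviation of *Egr1*, *Fos*, *Junb*, *Jun*, *Atf3* and *Jund* from the mean of each gene over the 8 livers, on the log2 scale, with 1 column of points for each liver and a dotted line between the groups. *Egr1* runs from -1.5 in control replicate 1 to 1.97 in senescent replicate 4, and *Jund* stays between -0.14 and 0.14.

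The difference between the tissues, the liver change minus the iMEF change, was tested for the 7 members that passed the filter in both. *Fos* and *Jund* passed, 2 of 7 and both higher in livers, where 17.1% of 11693 genes passed and 9.69% were higher. For *Fos* the difference was 1.79 on the log2 scale (SE 0.59, interval 0.55 to 3.04, adjusted p = 0.0457, edgeR), from a change of -1.52 in iMEFs and 0.27 in livers. For *Jund* it was 0.49 (SE 0.15, interval 0.17 to 0.80, adjusted p = 0.0332, edgeR), from -0.46 and 0.03. Both rest near the threshold. *Fos* was past it in 7 of 19 alternatives and *Jund* in 11 of 19. The *Fos* difference lost its call without any 1 of the 6 iMEF libraries, liver control replicates 1 or 2 or liver senescent replicates 3 or 4, with adjusted p-values of 0.0623 to 0.133 (edgeR). The *Jund* difference lost it without iMEF control replicates 1 or 2, iMEF senescent replicates 2 or 3, liver control replicates 1 or 3 or liver senescent replicate 2, with 0.0545 to 0.0796.

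For the other members the difference did not pass. It was 1.17 for *Junb* (SE 0.44, adjusted p = 0.0797, edgeR), -1.05 for *Atf3* (SE 0.43, adjusted p = 0.104), 1.08 for *Egr1* (SE 0.85, adjusted p = 0.415), -0.35 for *Jun* (SE 0.27, adjusted p = 0.408) and 0.00 for *Fosl2* (SE 0.19, adjusted p = 0.992). The *Junb* difference passed in 5 of 19 alternatives, among them limma-voom (adjusted p = 0.0385), the replicate block (adjusted p = 0.000555, edgeR), no filter (adjusted p = 8.88e-07, edgeR), and without liver control replicate 3 (0.00757) or liver senescent replicate 1 (0.0352). That of *Atf3* passed in 2, without the filter (0.0406) or without liver senescent replicate 4 (0.0205), that of *Egr1* in 1, without the filter (0.000746), and those of *Jun* and *Fosl2* in 0. Without the filter the differences themselves hardly moved, with 1.17 for *Junb*, -1.04 for *Atf3* and 1.08 for *Egr1*. Those calls came from smaller p-values at like differences, and the cause was not tested. *Fosb* and *Fosl1* were too low in livers for this test.

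**Figure D5:**
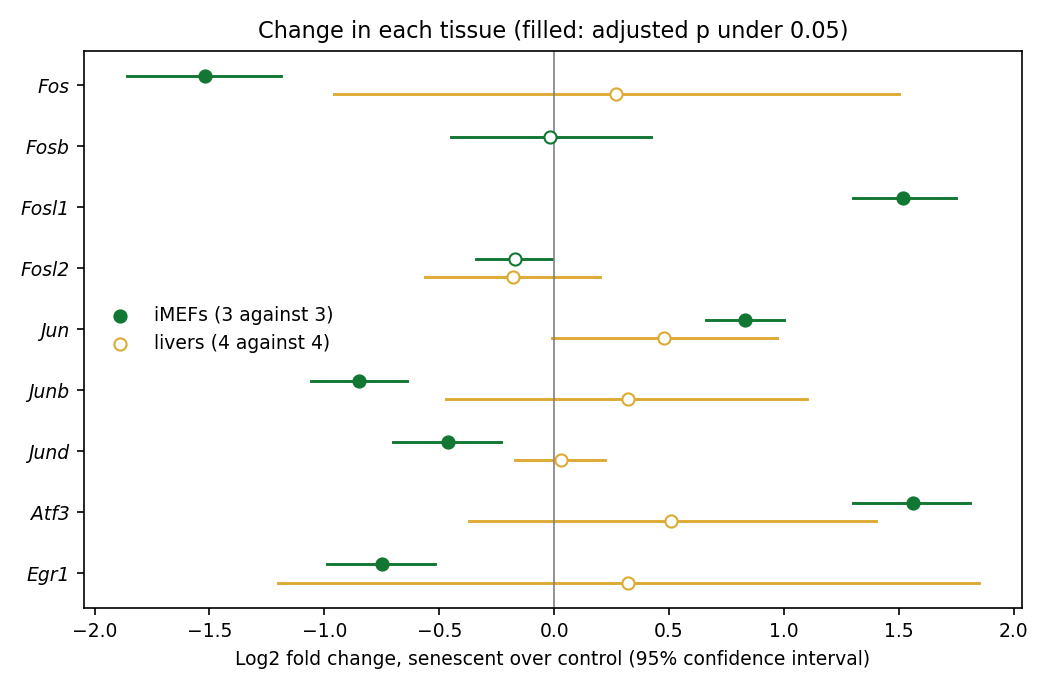
Log2 fold change, senescent against control, of each member in iMEFs and in livers, with bars for the 95% confidence interval of the edgeR fit and filled points for an adjusted p under 0.05. The 7 filled points are all in the iMEFs, and the liver intervals of *Fos* and *Egr1* are the widest.

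Genes that act around AP-1 were read from 6 lists, 146 genes in all. Of the AP-1 partners, which are other leucine zipper proteins that can pair with FOS or JUN, 11 of 14 were tested in iMEFs, 4 rose, 4 fell and 3 did not pass, with a median log2 fold change of 0.04. That is 72.7% past the threshold, where 39.8% of all genes were (18.6% higher and 21.2% lower). *Creb5* rose by 1.17 (SE 0.12, adjusted p = 8.74e-06, edgeR) from 13.3 ± 1.7 to 30 ± 1.96 CPM, and the small MAF genes *Mafk* and *Maff* rose by 0.57 and 0.61. The large *Maf* fell by 1.49 on the log2 scale (SE 0.08, adjusted p = 7.83e-08, edgeR) from 88.4 to 31.5 CPM. *Jdp2*, a repressor that pairs with JUN, had -0.78. Of 44 other immediate early genes tested, 14 rose, 12 fell and 18 did not pass (59.1% past the threshold against 39.8% of all genes), with a median of 0.05. *Myc*, *Phlda1* and *Id1* rose by 1.46, 1.01 and 1.35, while the synaptic gene *Arc* had -1.78, the mRNA decay factor gene *Zfp36l1* -0.92 and *Socs3*, an inhibitor of cytokine signaling, -1.05. Immediate early genes thus moved both ways in senescent iMEFs, as did all genes tested.

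Of 31 genes tested in iMEFs from the MAP kinase cascade, which acts upstream of AP-1, 4 rose, 5 fell and 22 did not pass, 29.0% past the threshold where 39.8% of all genes were. Without control replicate 1 or 2 the list had 5 calls in place of 9. *Mapk13*, which encodes a p38 kinase, rose by 1.01 (SE 0.11, adjusted p = 1.56e-05, edgeR), *Map3k5*, the stress kinase ASK1, by 0.67 and *Rps6ka5*, the kinase MSK1, by 0.33. The *Rps6ka5* call was past the threshold in 7 of 11 alternatives and was lost without control replicate 1 (adjusted p = 0.0942, edgeR) or 2 (0.145) or senescent replicate 2 (0.0621). *Mapk3*, which encodes ERK1, had a log2 fold change of -0.60 (SE 0.09, adjusted p = 0.000208, edgeR), *Map3k1* -0.55 and *Mapk7*, which encodes ERK5, -0.45. Of 9 genes for serum response factor, its partners and CREB factors, which bind the promoters of *Fos* and *Egr1*, 1 passed, *Elk1*, with -0.53 (SE 0.11, adjusted p = 0.00221, edgeR), and 2 passed without senescent replicate 1 or 3.

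The feedback inhibitors were a list of *Dusp* phosphatase genes and *Spry* and *Spred* genes, with *Errfi1*, *Nab1* and *Nab2*. In iMEFs 13 of 21 were higher, 3 lower and 5 did not pass, with a median log2 fold change of 0.45. Of this list 76.2% passed, against 39.8% of all genes, of which 18.6% were higher and 21.2% lower. *Dusp4* rose by 2.27 (SE 0.16, adjusted p = 4.69e-07, edgeR) from 2.41 to 11.6 CPM, *Dusp6*, the ERK phosphatase, by 1.51 from 16.8 to 47.7 CPM, and *Spry2* by 1.24 from 14 to 33.1 CPM. *Nab2*, a corepressor that binds EGR1 and is induced by it, fell from 150.8 to 60.5 CPM, a log2 fold change of -1.32 (SE 0.14, adjusted p = 1.22e-05, edgeR). *Spry1* had -0.82 and *Dusp14* -0.44. Of 21 textbook AP-1 targets tested, 12 rose, 6 fell and 3 did not pass (85.7% past the threshold against 39.8% of all genes), with a median of 0.84. *Areg*, a ligand of the EGF receptor, rose by 2.17 (SE 0.17, adjusted p = 1.41e-06, edgeR), *Ccnd1*, cyclin D1, by 1.02 and *Cd44*, a hyaluronan receptor, by 1.35. *Ccl2*, a monocyte chemokine, had -0.63, the urokinase gene *Plau* -0.65 and *Timp1*, an inhibitor of matrix metalloproteinases, -0.50.

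In livers, 0 of 10 AP-1 partners, 0 of 30 genes of the MAP kinase cascade, 0 of 9 serum response and CREB factors and 0 of 19 feedback inhibitors passed (edgeR). DESeq2 called 1 gene in these lists, of the MAP kinase cascade. Unadjusted p-values under 0.05 (edgeR) numbered 1, 3, 0 and 2 in them, where 1076 of all 14270 genes tested had one. The other immediate early genes had 5 of 39 and the AP-1 targets 4 of 14. Of 39 other immediate early genes 2 rose, 5.13% against 0.308% of all genes that rose, and both are also known as targets of p53. *Plk2*, a polo-like kinase, rose by 1.66 (SE 0.17, adjusted p = 0.000651, edgeR), from 11.8 ± 2.23 to 37.2 ± 8.24 CPM. *Btg2*, an antiproliferative factor, rose by 1.52 (SE 0.23, adjusted p = 0.0103, edgeR), from 11.9 ± 2.28 to 34.3 ± 10.5 CPM, and its adjusted p was 0.0522 without control replicate 1. Of 14 AP-1 targets 1 rose, 7.14% against 0.308% of all genes that rose. This was *Lif*, a cytokine of the interleukin 6 family. It had 0, 0, 0 and 2 reads in control livers and 18, 36, 39 and 29 reads in senescent livers. The ratio of its reads was 66.2, with an exact counting interval of 17.9 to 553.1 (adjusted p = 0.00311, edgeR). All 4 senescent livers had more *Lif* reads than any control.

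Genes whose profile over the libraries was most like a member's were found by the root mean square difference of log2 CPM centred on each gene's mean, over 12492 genes of at least 1 CPM in 6 iMEF libraries and 13180 in 8 livers. In iMEFs, *Enpp3* (0.10) and *Kctd15* (0.11) were nearest to *Fos*, *Myc* (0.09) and *Dapk1* (0.10) to *Fosl1*, and *Pmaip1* (0.07) and *Ddit4l* (0.09) to *Atf3*. *Otud4* (0.04) and *Hspd1* (0.05) were nearest to *Jun*, *Igtp* (0.02) and *Atf5* (0.04) to *Junb*, *Med9* (0.03) and *Rab43* (0.05) to *Jund*, and *Dsel* (0.04) and *Cxcl5* (0.04) to *Egr1*. With 6 libraries in 2 groups, any gene with a like change between the groups comes out near. In livers *Pgbd1* (0.39) and *Angptl8* (0.62) were nearest to *Egr1*, whose own root mean square deviation was 1.21, and *Ctsk* (0.47) and *Mblac1* (0.50) to *Fos* (0.98). *Socs3* (0.26), itself an immediate early gene, and *1700056E22Rik* (0.31) were nearest to *Junb* (0.63).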

How the data were processed

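RNA was sequenced from 6 iMEF and 8 liver libraries. The authors deposited a table of raw counts for each tissue (54532 genes). The submitters' processing notes name STAR, featureCounts and the build mm10 without versions, and whether counting used strand is not given in the sources used here. Normalized tables with signal values, deposited by the authors for 17399 genes in iMEFs and 19836 in livers, equal the counts divided by 1 size factor per library, and were used only for that check. There were 0 columns left unused. GENCODE M21 (GRCm38) gave exon lengths for 54409 gene IDs.

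Samples were grouped by title, genotype and treatment in the labels. The study calls the replicates biological, and whether cultures were separate lines is not stated. Libraries of a group differed by more than sampling noise in a chi-square test, so none was counted as a duplicate. CPM were normalized by TMM. iMEFs and livers were fitted separately in edgeR 4.0.16 (R 4.3.3) by filterByExpr, TMM and the quasi-likelihood test, with 4 and 6 residual degrees of freedom. P-values were adjusted over all genes tested (Benjamini-Hochberg, threshold 0.05). Fold changes use a prior count of 0.125. The tissue difference was fitted over all 14 libraries. The steps were tested on simulated counts with known changes. Alternatives were RLE size factors, no filter on low counts, DESeq2 1.42.0, limma-voom 3.58.1, the replicate number as a block, and leaving out each library.

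The 9 members, the 6 lists, the markers, the tests and the alternatives were chosen with earlier results of these data known, so no list is independent evidence. Named genes are the members, *Terf2*, *Cdkn1a*, genes whose span overlaps a member, up to 3 genes per list, tissue and direction with the smallest p past the threshold, and the 2 nearest profiles of a member, and 1 gene that this rule takes is not reported here. Promoter windows are from RefSeq (GRCm38.p6). Tables were handled with Python 3.11.15.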

Additional observations from a re-analysis of the deposited data

Results flagged for a closer look

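For 2 members a test of the difference between the tissues, over all 14 libraries, passed the threshold, and both calls depend on the analysis. The change of *Fos* in livers minus that in iMEFs was 1.79 on the log2 scale (SE 0.59, adjusted p = 0.0457, edgeR), with *Fos* lower in 3 of 3 senescent iMEF libraries than in every control. The same difference for *Jund* was 0.49 (SE 0.15, adjusted p = 0.0332, edgeR), with *Jund* lower in 3 of 3 senescent iMEF libraries. The *Fos* call held in 7 of 19 alternatives and was lost by DESeq2 (adjusted p = 0.11), by limma-voom (0.0757) and without any 1 iMEF library, and the *Jund* call held in 11 of 19 and was lost without the filter (adjusted p = 0.0796, edgeR). Tissue, culture, time after deletion and the share of cells that lost *Trf2* differ together between the comparisons and cannot be told apart. By Dixon's criterion no liver library stood apart from its group for any of the 9 members, *Terf2* or *Cdkn1a* (22 groups of 4 libraries tested).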

How the results depend on the processing

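All 7 iMEF calls among the members held under RLE factors, no filter, DESeq2, limma-voom, the replicate block and without each library, and 0 liver members passed under any of them. Deviations of same-numbered libraries over all genes correlated at -0.161 to -0.0121 in iMEFs and at 0.00699, -0.0729, -0.0342 and 0.233 in livers. Those of differently numbered libraries correlated at -0.119 to 0.144 in iMEFs and at -0.13 to 0.0808 in livers. The 0.233 of replicate 4 was thus the highest value in livers. The shared numbers were not taken as pairs in the main fit, but values over all genes do not settle this for single members. By replicate number, *Fos* deviations were -1.4, 0.21, 0.71 and 0.32 in control and -1.6, -0.31, 1.34 and 0.73 in senescent livers. The block took the liver SE of *Junb* from 0.36 to 0.13, of *Egr1* from 0.7 to 0.33 and of *Fos* from 0.56 to 0.33. That of *Jun* went from 0.22 to 0.23. With the replicate number as a block, 4696 genes and 7 members passed in iMEFs, 42 and 0 in livers, and 1842 and 3 (*Fos*, *Junb* and *Jund*) in the tissue difference. Genes past the threshold in livers went from 49 to 130 without a filter and 139 by DESeq2, and the cause was not tested. Members past it in the tissue difference went from 2 to 5 without a filter (*Fos*, *Fosb*, *Junb*, *Atf3* and *Egr1*, with 2 more genes tested), 1 by DESeq2 (*Jund*), 2 by limma-voom (*Junb* and *Jund*), and 0 to 3 without single libraries. Genes past it there ranged from 1278 (without iMEF control replicate 2) to 2161, against 2000 with all libraries.

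Values that changed sign were small or not called. For *Fosb* in iMEFs limma-voom gave 0.01, and leaving out single libraries gave -0.22 to 0.09. In livers leaving out single libraries gave -0.25 to 0.61 for *Fos*, -0.01 to 0.06 for *Jund*, -0.66 to 1.07 for *Egr1* and -0.04 to 0.17 for *Ccdc85b*. The tissue difference of *Fosl2* was 0.00 under RLE factors, no filter and DESeq2 and -0.10 to 0.12 without single libraries, and that of *Junos* -0.28 to 0.29. With 3 or 4 libraries a group, changes of *Egr1* or *Fos* in livers smaller than their intervals were not detectable, and *Fosb* and *Fosl1* were limited there by 0 to 14 reads a library.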
